A study of Mus musculus with 12 samples.

Results

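Mouse hippocampus exposed to an siRNA against GSK3b was compared with hippocampus of vehicle-treated mice across all named loci of 1 deposited expression table with a mean of at least 1 FPKM (fragments scaled to transcript length and to library size) over the 6 libraries. Of the 16687 loci in the table, 15634 carried a gene name and 14978 met this rule. The siGSK3b group was C57BL/6 mice that received 10 µg of siRNA in 5 µL per nostril on alternate days over 3 days (3 libraries). The control group was C57BL/6 mice given vehicle in the same volume, by the same route and on the same schedule (3 libraries). The series also holds 3 libraries of hippocampus from C57BL/6 mice given 60 µg of L803mts intranasally on that schedule and 3 from C57BL/6 mice given 10 mg/kg ketamine intraperitoneally and sampled at 24 h. The labels give neither age nor sex, name no siRNA sequence, list no control siRNA and do not say that the libraries of a group came from separate mice, so p-values here measure the spread between libraries, which may be technical. An effect of the siRNA against Gsk3b cannot be told apart from an effect of receiving any siRNA.

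GSK3β is a serine/threonine kinase that is active in resting cells and is inhibited when AKT or related kinases phosphorylate it near its N terminus. In the WNT pathway it marks β-catenin for destruction within a complex with Axin, APC and casein kinase 1, and in neurons it acts on tau, collapsin response mediator proteins and synaptic plasticity. An siRNA loaded into an Argonaute protein directs cleavage of a complementary mRNA, so the target transcript is the first readout of such an experiment.

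The targeted transcript was not lower in the treated hippocampus. Gsk3b (chromosome 16, 38243242 to 38247469, NCBIM37) was measured at 18.4, 19.3 and 18.9 FPKM in siGSK3b libraries 1, 2 and 3, against 17.96, 17.26 and 17.81 FPKM in control libraries 1, 2 and 3. Every siGSK3b library was above every control library, and the difference in log2(FPKM + 1), siGSK3b minus control, was 0.09 with a standard error of 0.09 and an adjusted p of 0.943 in limma with Benjamini-Hochberg adjustment over the 14978 loci. These values go against the direction an siRNA to this transcript would give, and the libraries are therefore called by their labels only. The locus covers 4228 bases, and which exons it holds was not assigned, because no NCBIM37 annotation was used here. GSK3α, the paralogous kinase, was measured only in a joint locus with its neighbour Erf, a transcriptional repressor, at 27.9, 33.2 and 24.0 FPKM in siGSK3b libraries against 28.3, 29.4 and 33.8 FPKM in control libraries, and these groups overlapped.

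The partners of GSK3β gave no call. Of 18 members of the list of GSK3 kinases and the destruction complex, none passed the adjusted test, none reached an unadjusted p of 0.05, and the median difference was 0.01, the same as over all 14978 loci (0.01). Casein kinase 1α (Csnk1a1), which primes β-catenin for GSK3, had 75.6, 66.2 and 71.2 FPKM in siGSK3b libraries and 65.7, 63.2 and 65.2 FPKM in control libraries. Ctnnbip1, an inhibitor of the β-catenin and TCF interaction, had 11.5, 11.6 and 11.8 FPKM in siGSK3b libraries and 12.3, 13.4 and 12.8 FPKM in control libraries. Both pairs of groups stood apart, in opposite directions and by 0.13 and -0.13 on the log2(FPKM + 1) scale. β-catenin mRNA itself (Ctnnb1) overlapped, at 100.1, 92.9 and 87.4 FPKM in siGSK3b libraries and 110.2, 92.9 and 102.9 FPKM in control libraries.

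Among 24 WNT ligands, receptors and target genes, none passed the adjusted test. Fzd4, a Frizzled receptor of brain endothelium, had 4.11, 5.14 and 3.70 FPKM in siGSK3b libraries, against 3.53, 1.88 and 1.81 FPKM in control libraries (difference 0.67, SE 0.23, adjusted p = 0.893). Wnt7a, a ligand of that vascular pathway, had 5.02, 4.92 and 5.68 FPKM in siGSK3b libraries, against 5.87, 6.99 and 9.19 FPKM in control libraries (difference -0.41, SE 0.17, adjusted p = 0.901). The receptor was thus higher and the ligand lower in all 3 siGSK3b libraries, neither past the adjusted test. For both genes control 1 was the control nearest to the siGSK3b libraries. Fzd4 in control 1 (3.53 FPKM) was close to siGSK3b library 3 (3.70 FPKM), and its difference was 0.89 without control 1. Any link between the 2 genes was not tested. The β-catenin target cyclin D1 (Ccnd1) overlapped, at 17.4, 17.1 and 14.6 FPKM in siGSK3b libraries and 15.96, 14.77 and 16.00 FPKM in control libraries. The list median was -0.06. Of 33 GSK3 substrates and upstream kinases, 2 stood apart above the controls, against 5.43% of all loci, and none below. Both, Sgk1 and Sgk3, are kinases of the SGK family that phosphorylate GSK3β. The list median was -0.002, with 16 positive and 17 negative differences. Sgk3 had 39.6, 43.5 and 35.7 FPKM in siGSK3b libraries and 32.4, 17.7 and 31.1 FPKM in control libraries (difference 0.58, SE 0.22, adjusted p = 0.893).

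Over all 14978 loci, 1 passed an adjusted p of 0.05, and it was lower in siGSK3b hippocampus (0.00668% of loci). No locus was lower at that threshold when loci that share limits with another were left out, or without siGSK3b library 1 or 3. At an unadjusted p under 0.05, 405 loci (2.7%) were higher and 419 (2.8%) were lower in siGSK3b libraries. Every siGSK3b library was above every control library at 813 loci (5.43%) and below every control library at 737 (4.92%). These shares are the background for every count of list members given here. The median size of a difference was 0.109 on the log2(FPKM + 1) scale, and 90% of the loci lay between -0.37 and 0.35. A difference of at least 1 was seen at 133 loci, and at 43 of them the groups stood apart.

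**Figure D1:**
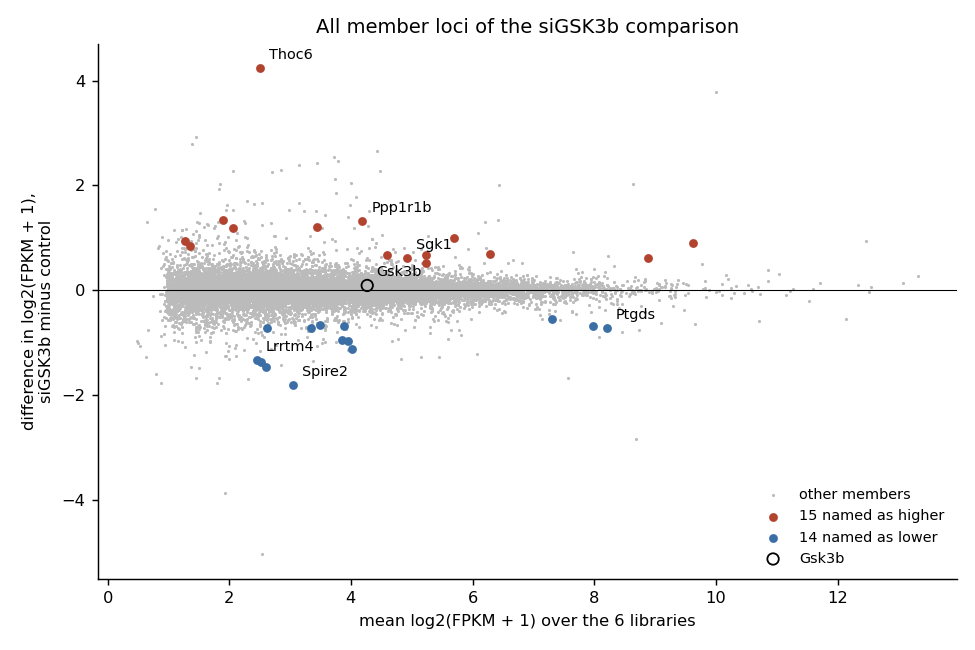
Difference in log2(FPKM + 1), siGSK3b minus control, against the mean log2(FPKM + 1) of the 6 libraries for each of 14978 loci. Red and blue points are the 15 loci named as higher and the 14 named as lower, and the ring is Gsk3b, at a difference of 0.09. Thoc6 lies highest, at 4.24.

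Thoc6, a subunit of the THO mRNA export complex, had the lowest p among loci that were higher. It was listed at 22.0, 38.6 and 15.5 FPKM in siGSK3b libraries, against 9.27e-14, 1.24 and 5.05e-27 FPKM in control libraries (difference 4.24, SE 0.41, adjusted p = 0.0609). Without control 1 or control 2 the adjusted p was 0.0279 and 0.0373, and over all alternatives it ran from 0.00593 to 0.544. Its limits (chromosome 17, 23807486 to 23813493) are shared with loci of Hcfc1r1 and Tnfrsf12a, so its level also depends on how fragments were divided among neighbours. The same control libraries have 2.71, 4.04 and 3.99 FPKM of Thoc6 in the ketamine table, at other limits (23806026 to 23810757). The values near 0 in controls therefore belong to the locus of this table and do not show that Thoc6 was absent from control hippocampus. Of the 15 loci named as higher and the 14 named as lower, 5 and 2 have limits under 500 bases, and 3 and 1 share limits with another locus. None of these 29 loci passed the adjusted test, and they are given as values.

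Sgk1, a glucocorticoid-induced kinase, had the lowest p of the protein-coding genes that were higher and share no limits. It had 38.7, 35.8 and 35.1 FPKM in siGSK3b libraries, against 24.7, 24.9 and 21.3 FPKM in control libraries. The lowest siGSK3b value exceeded the highest control value by a wide margin, and the means were 36.5 ± 1.91 and 23.7 ± 2.04 FPKM (SD, n = 3 each; difference 0.61, SE 0.10, adjusted p = 0.520). Sgk1 is also made by mature oligodendrocytes, whose markers were mostly lower in siGSK3b libraries, as given further on. The part of these cells in the Sgk1 values was not tested.

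Grin2a, the GluN2A subunit of the NMDA receptor, had 94.6, 116.1 and 86.5 FPKM in siGSK3b libraries, against 56.4, 63.3 and 61.9 FPKM in control libraries (difference 0.69, SE 0.12, adjusted p = 0.520). The gene has 2 loci on its strand, and the same control libraries have 305.6, 256.2 and 324.8 FPKM in the ketamine table at nearly the same limits, so the level depends on how fragments were divided between loci. Ppp1r1b, the gene of DARPP-32, an inhibitor of protein phosphatase 1 under dopamine control, had 27.0, 37.0 and 21.2 FPKM in siGSK3b libraries, against 16.6, 7.66 and 9.10 FPKM in control libraries (difference 1.31, SE 0.29, adjusted p = 0.817). Of the 13 members on the list of striatal neuron markers, which holds Ppp1r1b, the other 12 had negative differences, and the list median was -0.14. Csmd1, a complement-regulating membrane protein, appeared as a pair of loci, one protein-coding and one intronic. The protein-coding locus had 1228, 1198 and 852 FPKM in siGSK3b libraries, against 466, 574 and 709 FPKM in control libraries, and the intronic locus had 47.6, 42.7 and 48.9 FPKM, against 28.4, 33.7 and 24.8 FPKM. Both Csmd1 loci share their limits with other loci.

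Flcn (folliculin, a regulator of mTORC1 at the lysosome) and Anapc10 (a subunit of the anaphase-promoting complex) were also among the 15. Anapc10 had 59.0, 74.9 and 86.4 FPKM in siGSK3b libraries, against 40.4, 44.3 and 25.3 FPKM in control libraries, a difference of 1.00. Flcn had 45.2, 39.2 and 47.4 FPKM in siGSK3b libraries, against 29.5, 33.0 and 28.7 FPKM in control libraries, a difference of 0.52 at a locus of 284 bases. Tmem98, a membrane protein of oligodendrocytes and other cells, had 4.65, 6.58 and 4.77 FPKM in siGSK3b libraries, against 2.38, 1.34 and 1.69 FPKM in control libraries. The remaining loci of this group were the antisense RNA 9130024F11Rik, the lincRNA Gm15706, BC034090, Myo5c, Paqr5 and Pbxip1, with differences of 0.61 to 1.34.

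Lrrtm4, a leucine-rich repeat protein that organises excitatory synapses of dentate granule cells, had the lowest p of the 14 loci named as lower. It had 3.32, 2.14 and 2.07 FPKM in siGSK3b libraries, against 9.24, 6.91 and 7.12 FPKM in control libraries (difference -1.33, SE 0.19, adjusted p = 0.515). The highest siGSK3b value was below the lowest control value by a wide margin, at a locus of 333 bases (chromosome 6, 79968806 to 79969138). Lgi3, a secreted protein of the LGI family found at myelinated axons, had 10.8, 11.7 and 8.04 FPKM in siGSK3b libraries, against 22.5, 21.2 and 18.7 FPKM in control libraries (difference -0.97, SE 0.15, adjusted p = 0.520). Zcchc7, a zinc-knuckle subunit of a nuclear RNA surveillance complex, had 122.1, 131.3 and 136.4 FPKM in siGSK3b libraries, against 193.8, 198.9 and 179.0 FPKM in control libraries (difference -0.55, SE 0.08, adjusted p = 0.515).

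Ptgds, the prostaglandin D2 synthase made by leptomeninges, choroid plexus and oligodendrocytes, had 246.4, 220.0 and 221.7 FPKM in siGSK3b libraries, against 350.3, 452.7 and 343.5 FPKM in control libraries (difference -0.72, SE 0.12, adjusted p = 0.520). Ptger3, the EP3 receptor for prostaglandin E2, had 4.79, 1.598 and 1.997 FPKM in siGSK3b libraries, against 6.38, 10.5 and 8.22 FPKM in control libraries (difference -1.37, SE 0.32, adjusted p = 0.817). The groups of both genes stood apart, and neither gene passed the adjusted test. Vwc2 (brorin, an extracellular antagonist of BMP signalling) had 2.96, 2.13 and 2.93 FPKM in siGSK3b libraries, against 8.88, 13.8 and 6.02 FPKM in control libraries. Spire2, an actin nucleator, had 1.63, 6.12 and 3.59 FPKM in siGSK3b libraries, against 12.9, 17.7 and 13.2 FPKM in control libraries. The other loci of this group were Derl2, which acts in the export of misfolded proteins from the endoplasmic reticulum, Ccdc107, Nfkbil1, Adamtsl2, 1110008P14Rik, the antisense locus Gm2464 and Fam193b, with differences of -1.13 to -0.67.

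**Figure D2:**
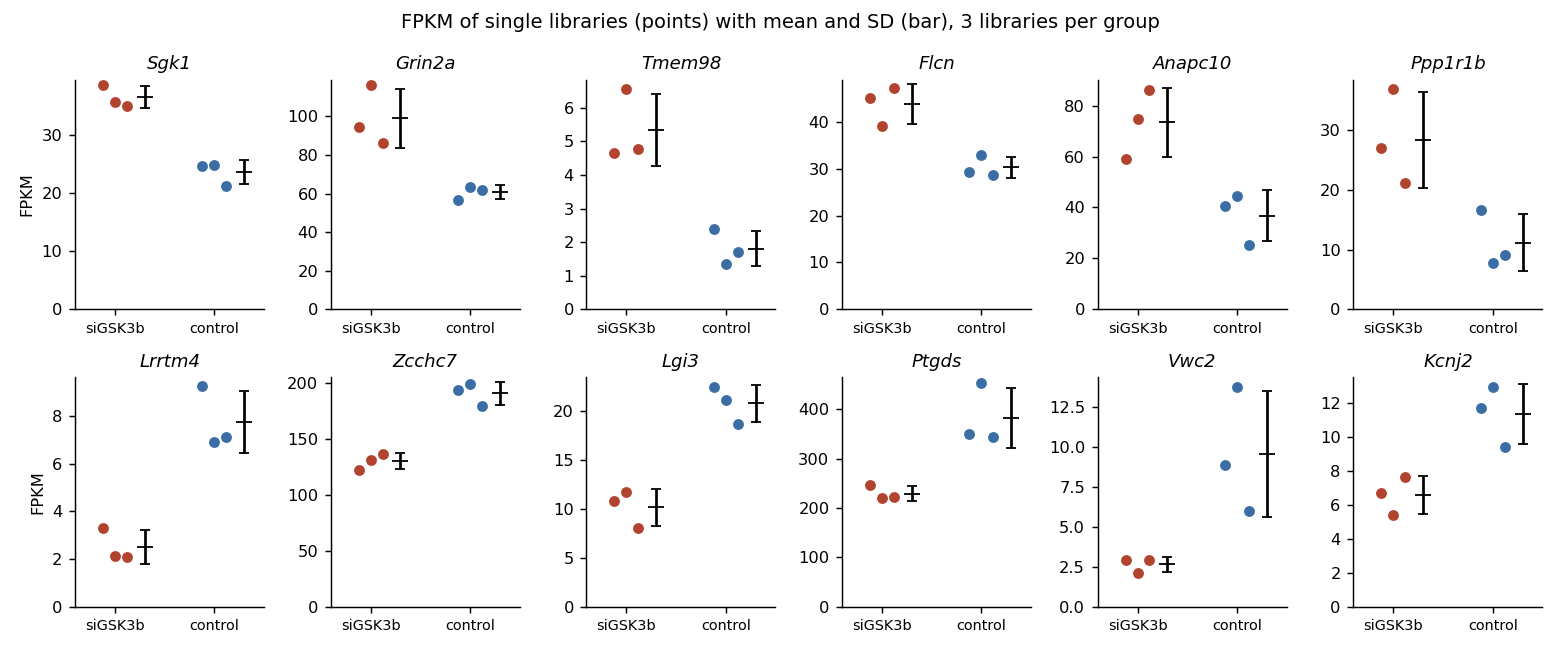
FPKM in each library for 12 genes, siGSK3b left (red) and control right (blue), with the mean and SD of 3 libraries as a bar. The 12 genes were taken from those whose groups stand apart, so every panel shows this by choice. Genes higher with siGSK3b are in the upper row and genes lower are in the lower row. None of the 12 passed the adjusted test.

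Promoters of the loci of lowest p on each side that had an entry in the promoter table are shown from 250 bases before to 50 bases after the gene start, 5′ to 3′ on the gene's strand, from RefSeq on GRCm38.p6. Capitals mark matches on either strand to AGAACA (one arm of the glucocorticoid receptor element), CTTTG (the core bound by TCF/LEF, the partners of β-catenin) or TGACG (one arm of the cAMP response element). The positions are chr17:23673828-23674127 (minus strand) for Thoc6, chr6:80018627-80018926 (plus strand) for Lrrtm4, chr1:56971219-56971518 (plus strand) for 9130024F11Rik and chr4:44756309-44756608 (plus strand) for Zcchc7.
Thoc6: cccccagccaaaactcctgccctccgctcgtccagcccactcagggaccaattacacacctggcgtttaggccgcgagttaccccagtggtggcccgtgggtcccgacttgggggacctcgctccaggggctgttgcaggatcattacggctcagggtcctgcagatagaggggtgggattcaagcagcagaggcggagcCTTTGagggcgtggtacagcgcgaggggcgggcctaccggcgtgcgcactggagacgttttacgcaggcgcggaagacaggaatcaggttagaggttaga
Lrrtm4: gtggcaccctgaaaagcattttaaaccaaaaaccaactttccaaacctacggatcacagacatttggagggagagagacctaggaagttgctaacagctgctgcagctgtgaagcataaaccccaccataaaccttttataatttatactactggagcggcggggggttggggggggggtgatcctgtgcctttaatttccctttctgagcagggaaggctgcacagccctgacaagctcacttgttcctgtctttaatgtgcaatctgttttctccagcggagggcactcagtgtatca
9130024F11Rik: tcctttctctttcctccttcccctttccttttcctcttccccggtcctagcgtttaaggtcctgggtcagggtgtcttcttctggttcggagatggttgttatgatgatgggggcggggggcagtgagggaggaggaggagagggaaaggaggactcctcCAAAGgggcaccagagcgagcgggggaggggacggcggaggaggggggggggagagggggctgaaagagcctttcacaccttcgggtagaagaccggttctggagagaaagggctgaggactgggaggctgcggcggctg
Zcchc7: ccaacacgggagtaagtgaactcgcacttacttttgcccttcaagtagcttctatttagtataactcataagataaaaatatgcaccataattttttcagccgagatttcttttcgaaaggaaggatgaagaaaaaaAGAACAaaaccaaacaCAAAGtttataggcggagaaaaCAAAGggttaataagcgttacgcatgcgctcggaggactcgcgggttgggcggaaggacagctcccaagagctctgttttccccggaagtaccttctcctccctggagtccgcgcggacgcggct
CTTTG was found once each for Thoc6 and 9130024F11Rik and at 2 places for Zcchc7, and 54.0% of the 27025 promoters in the table hold it. AGAACA was found once, for Zcchc7, and is held by 19.0% of promoters. TGACG was found in none of these 4 and is held by 21.0%. No match overlapped another, and Lrrtm4, which has 2 starts in the table, had none of the 3 motifs in the window shown.

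The machinery that carries an siRNA gave no call either. Of 15 members of the list of RNA interference genes, none passed an unadjusted p of 0.05 in either direction, none had groups that stood apart, and the median difference was 0.09. The Argonaute gene Eif2c2 (Ago2), which holds the cleaving activity, had 6.47, 9.14 and 7.38 FPKM in siGSK3b libraries and 6.54, 5.89 and 7.59 FPKM in control libraries. Dicer1, which cuts long double-stranded RNA, had 21.3, 22.0 and 20.5 FPKM in siGSK3b libraries and 25.6, 23.5 and 20.3 FPKM in control libraries. Tnrc6a, the GW182 partner of Argonaute, varied most, at 55.0, 62.6 and 331.6 FPKM in siGSK3b libraries and 56.7, 757.3 and 896.6 FPKM in control libraries, with both groups spanning a wide range and overlapping. That locus covers 141389 bases and shares its limits with another. At narrower limits, the same control libraries have 39.4, 39.8 and 39.6 FPKM in the L803mts table and 43.7, 43.5 and 44.3 FPKM in the ketamine table. The spread was thus seen at the locus of this table and not at those loci.

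Genes of RNA sensing and the interferon response were mixed. Of 23 members, 1 was higher and 1 lower at an unadjusted p under 0.05, 3 had all siGSK3b libraries above all controls and 1 below, and the median was 0.01. Tlr3, the endosomal receptor for double-stranded RNA, had 5.73, 5.40 and 6.33 FPKM in siGSK3b libraries, against 3.82, 1.43 and 2.33 FPKM in control libraries (difference 1.01, SE 0.25, adjusted p = 0.817; a locus of 232 bases). At nearly the same limits the control mean of Tlr3 was 2.56 FPKM in the L803mts table and 15.4 FPKM in the ketamine table. Tlr7, the endosomal receptor for single-stranded RNA, had 1.86, 1.73 and 1.75 FPKM in siGSK3b libraries, against 1.21, 1.37 and 1.15 FPKM in control libraries. Irf3, the transcription factor downstream of Tlr3, ran the other way, at 8.47, 5.76 and 7.98 FPKM in siGSK3b libraries, against 9.45, 11.8 and 14.3 FPKM in control libraries (difference -0.61, SE 0.19, adjusted p = 0.893). The control mean of Irf3 was 11.9 FPKM here, against 4.60 FPKM in the L803mts table and 22.6 FPKM in the ketamine table. Irf1 had 5.43, 6.88 and 5.58 FPKM in siGSK3b libraries and 4.76, 4.21 and 5.22 FPKM in control libraries. The interferon-induced genes Ifit1, Ifit2, Rsad2, Bst2 and Psmb8 had groups that overlapped.

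Markers of myelin and mature oligodendrocytes were mostly lower. Of 19 members, 18 had negative differences, 4 were lower at an unadjusted p under 0.05, 6 had all siGSK3b libraries below all controls, none passed the adjusted test, and the median was -0.19, against 0.01 over all loci. Mobp, a structural protein of compact myelin, had 59.0, 58.8 and 57.3 FPKM in siGSK3b libraries, against 82.7, 76.5 and 75.3 FPKM in control libraries (difference -0.41, SE 0.08, adjusted p = 0.520). The spread within each Mobp group was small beside the gap between them. Mbp, myelin basic protein, had 356.6, 442.9 and 377.0 FPKM in siGSK3b libraries, against 478.7, 472.8 and 489.8 FPKM in control libraries (difference -0.30, SE 0.10, adjusted p = 0.893). Mag, the adhesion molecule of the innermost myelin layer, had 15.9, 19.8 and 15.8 FPKM in siGSK3b libraries, against 21.4, 23.0 and 21.7 FPKM in control libraries (difference -0.35, SE 0.12, adjusted p = 0.893). Opalin, Cnp and Gpr37 also stood apart, with differences of -0.53, -0.19 and -0.18. The Opalin locus covers 1151 bases and had a control mean of 2.07 FPKM. In the L803mts table, at wider limits (41134425 to 41151771), its control mean was 19.96 FPKM. Mog, a glycoprotein of the outer myelin surface, overlapped, at 27.2, 18.4 and 22.5 FPKM in siGSK3b libraries and 20.2, 21.2 and 29.3 FPKM in control libraries. In bulk tissue, fewer oligodendrocytes and less of these RNAs per oligodendrocyte cannot be told apart. Markers of thalamus and habenula, a neighbouring tissue, had a list median of -0.20 and a mean log2(FPKM + 1) of 2.59, 2.40 and 2.72 in siGSK3b libraries and 2.98, 2.78 and 2.56 in control libraries, and their part in the myelin values was not tested. The mean log2(FPKM + 1) of the myelin list was 5.08, 5.13 and 5.25 in siGSK3b libraries and 5.45, 5.35 and 5.25 in control libraries, so siGSK3b library 3 lay level with control 3, and the median ranged from -0.28 without control 3 to -0.15 without control 1. Markers of oligodendrocyte precursors had a median of 0.03, with 1 of 10 members, C1ql1, standing apart, and higher.

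Choroid plexus genes separated controls 2 and 3 from the other libraries. All 22 members had positive differences, with a median of 1.66, and 17 were higher at an unadjusted p under 0.05, yet none had groups that stood apart and none passed the adjusted test. Ttr, the thyroid hormone carrier transthyretin, had 3481, 4896 and 3294 FPKM in siGSK3b libraries, against 3579, 203.5 and 28.0 FPKM in control libraries. Folr1, the folate receptor of this epithelium, had 45.3, 60.7 and 40.2 FPKM in siGSK3b libraries, against 52.0, 4.45 and 2.63 FPKM in control libraries. Control 1 was therefore at the level of the siGSK3b libraries, and only controls 2 and 3 were low. Without control 1, 29 loci were higher at an adjusted p of 0.05 (0.194% of loci) and 2 were lower (0.0134%). Of the 29, 14 are on the choroid plexus list, and control 1 was at or above the lowest siGSK3b library at 24. The choroid plexus adjoins the hippocampus in the ventricle, and the labels do not say how it was handled at dissection.

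**Figure D3:**
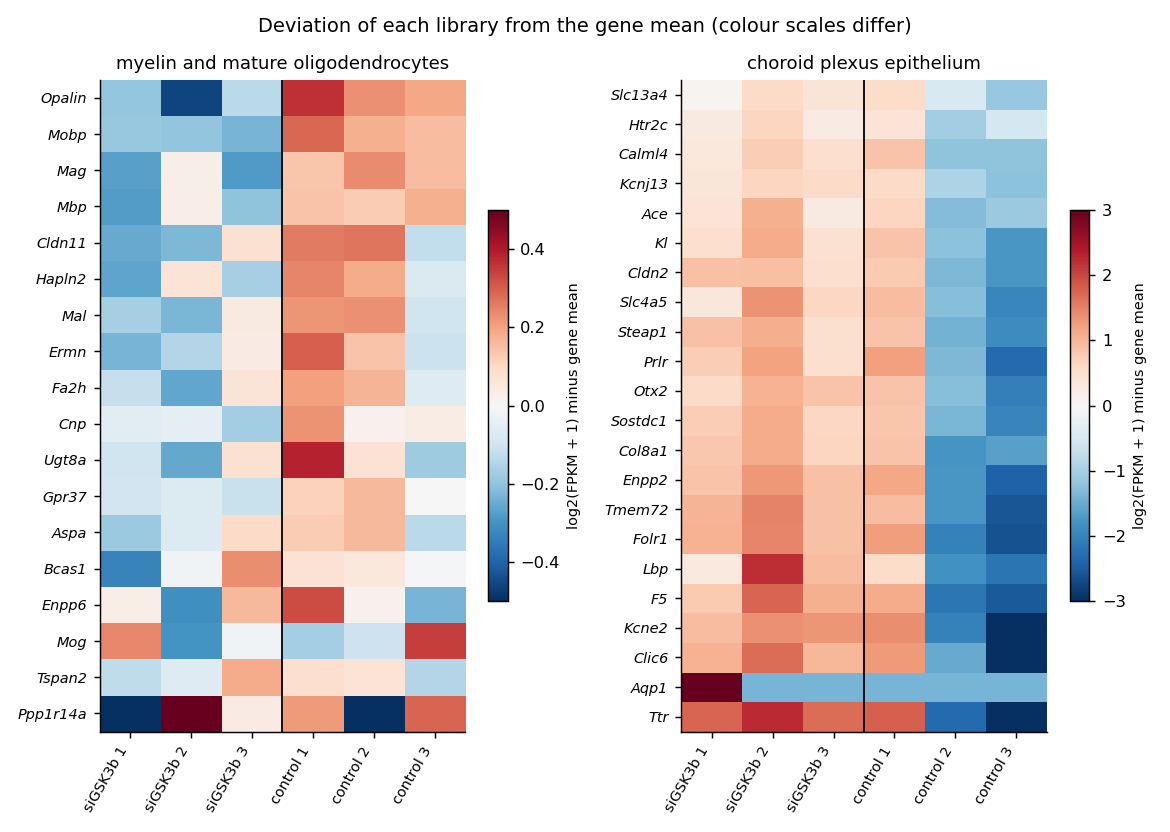
Deviation of log2(FPKM + 1) in each library from the mean of the gene, siGSK3b libraries left and control libraries right of the line, for 18 of the 19 myelin genes (left panel) and 22 choroid plexus genes (right panel). The colour scales differ between panels, and values beyond a scale are drawn at its end. Controls 2 and 3 are low for nearly all choroid plexus genes while control 1 resembles the siGSK3b libraries, and Mobp, Mbp, Mag and Opalin are lower in all 3 siGSK3b libraries.

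Neighbouring tissues gave smaller values. Ependymal and ciliary genes had a median of 0.20 with all 6 libraries and 0.55 without control 1, and none of 13 members stood apart. Of 23 genes of meninges and vascular fibroblasts, Ptgds and Aldh1a2, a retinoic acid synthase of the meninges, stood apart and were lower, and the median was 0.01. Aldh1a2 had 4.92, 2.11 and 3.82 FPKM in siGSK3b libraries, against 8.04, 5.33 and 5.50 FPKM in control libraries. Igfbp2, a secreted binding protein for insulin-like growth factors, had 50.1, 73.3 and 43.4 FPKM in siGSK3b libraries, against 56.2, 17.1 and 17.7 FPKM in control libraries, so control 1 lay within the range of the siGSK3b libraries, as it did for Ttr and Folr1. Endothelial and pericyte markers had medians of 0.04 and -0.02. Both blood cell markers measured, Hbb-b1 and Alas2, stood apart and were higher, by 0.24 and 0.21. Alas2 stood apart narrowly, at 16.64 FPKM in siGSK3b library 3 and 16.54 FPKM in control 2, and shares its limits with another locus. The part of blood, choroid plexus or meninges in other differences was not tested.

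Among glia, astrocyte and microglial lists had medians of -0.10 each. Slc7a10, the astrocytic transporter of D-serine and small neutral amino acids, had 23.7, 24.8 and 16.8 FPKM in siGSK3b libraries, against 15.5, 12.6 and 10.5 FPKM in control libraries (difference 0.71, SE 0.18, adjusted p = 0.817). Of the 19 members of its list, 16 had negative differences. In microglia, Itgam, the complement receptor subunit CD11b, was higher, at 13.8, 12.4 and 12.5 FPKM in siGSK3b libraries, against 7.97, 7.11 and 10.95 FPKM in control libraries. Its locus covers 417 bases, and 17 of the 20 members of the microglial list had negative differences. The complement components C1qc and C1qb were lower, by 0.54 and 0.32 on the log2(FPKM + 1) scale. None of these passed the adjusted test.

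Markers of hippocampal neurons were measured in all libraries. All 17 dentate granule cell genes and all 10 CA1 genes on the lists were members, and Prox1, the transcription factor that defines granule cells, was level at 16.9, 19.9 and 16.5 FPKM in siGSK3b libraries and 17.3, 19.0 and 16.9 FPKM in control libraries. List medians were -0.05 for dentate granule cells, 0.04 for CA1, -0.08 for CA2 and CA3 and -0.02 for GABAergic interneurons. Wfs1, wolframin of the endoplasmic reticulum and a CA1 marker, had 10.3, 10.7 and 10.3 FPKM in siGSK3b libraries, against 13.1, 15.6 and 17.2 FPKM in control libraries (difference -0.50, SE 0.12, adjusted p = 0.817). Plk5, a kinase-like protein of granule cells, had 1.28, 1.41 and 1.84 FPKM in siGSK3b libraries, against 2.82, 2.73 and 3.00 FPKM in control libraries (difference -0.62, SE 0.16, adjusted p = 0.817). Glis3 and Gpr161, of the same lists, were higher in all 3 siGSK3b libraries, by 0.36 and 0.27. The value of Glis3 is that of 1 of 24 loci with its name and the same limits. Its control mean was 11.6 FPKM here, against 6.25 FPKM in the L803mts table and 6.16 FPKM in the ketamine table, at other limits. Of 19 genes that mark neocortical neurons, Mef2c, Tbr1 and Tshz2 stood apart and were lower. Mef2c, an activity-regulated transcription factor also used in the dentate gyrus, had 41.5, 36.7 and 38.0 FPKM in siGSK3b libraries, against 52.7, 63.3 and 48.6 FPKM in control libraries (difference -0.49, SE 0.11, adjusted p = 0.817). Of the 12 thalamic and habenular markers, 1 stood apart, Plekhg1, and the median was -0.20 with all libraries and -0.09 without control 1.

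Neuronal activity genes overlapped between the groups. Of 32 immediate early genes, none reached an unadjusted p of 0.05 in either direction, and the median was -0.06. Fos had 10.97, 15.5 and 13.9 FPKM in siGSK3b libraries and 15.8, 13.6 and 13.2 FPKM in control libraries. Arc had 14.6, 15.9 and 16.3 FPKM in siGSK3b libraries and 11.6, 13.1 and 17.4 FPKM in control libraries. The groups of both genes overlapped, and only Egr4 stood apart, lower by 0.22. Bdnf, on the neuropeptide and neurotrophin list, also overlapped.

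Several ion channel genes stood apart, and none passed the adjusted test. Of 48 potassium channel genes, 3 were higher and 4 lower at an unadjusted p under 0.05, against 2.7% and 2.8% of all loci. Among the 48, 1 stood apart above and 6 below the controls, against 5.43% and 4.92% of all loci. Kcnj2, the inward rectifier Kir2.1 that holds the resting potential, had 6.66, 5.41 and 7.63 FPKM in siGSK3b libraries, against 11.7, 12.9 and 9.39 FPKM in control libraries (difference -0.70, SE 0.17, adjusted p = 0.817). Kcnip1, a calcium-binding partner of A-type channels, had 9.62, 8.96 and 9.53 FPKM in siGSK3b libraries, against 12.7, 15.7 and 24.6 FPKM in control libraries (difference -0.80, SE 0.21, adjusted p = 0.824), at limits it shares with another locus. Kcnc4 (Kv3.4) was lower by 1.04 at a locus of 260 bases, and Kcnh2 (the ERG channel) by 0.40. Of the 3 that were higher, Kcnj13 and Kcne2 are also on the choroid plexus list, and Kcnj3, a G protein-gated inward rectifier, had 507.4, 41.97 and 234.7 FPKM in siGSK3b libraries, against 38.9, 44.8 and 43.1 FPKM in control libraries, which overlap. Of 26 sodium, calcium and cyclic nucleotide-gated channel genes, 1 stood apart above and 1 below the controls, near the shares of all loci. Hcn2, which carries the hyperpolarization-activated current, was lower, at 18.7, 19.5 and 17.1 FPKM in siGSK3b libraries, against 22.5, 24.7 and 30.0 FPKM in control libraries (difference -0.45, SE 0.12, adjusted p = 0.849). Cacna2d3, a calcium channel subunit with 6 loci on its strand, was higher by 0.34.

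Of 38 genes of synaptic vesicles and release, none was higher and 4 were lower at an unadjusted p under 0.05, with a median of -0.06. That median ranged from -0.16 without control 1 to 0.02 without control 3, so its sign depended on control 3. Rims1, the active zone scaffold, had 46.6, 42.2 and 42.7 FPKM in siGSK3b libraries, against 48.9, 64.8 and 58.9 FPKM in control libraries (difference -0.38, SE 0.11, adjusted p = 0.893). Its relative Rims3, the fusion clamp protein Cplx3 and the calcium sensor Syt2 also stood apart, lower by 0.53, 0.87 and 0.28. Of 40 postsynaptic genes, 2 stood apart above the controls (Grin2a and Grin2c) and 3 below (Dlg1, Gria4 and Homer2), against 5.43% and 4.92% of all loci. The other NMDA receptor subunits on the list, Grin1, Grin2b and Grin3a, overlapped, with differences of -0.09, -0.10 and 0.04. Grin2c is a locus of 712 bases. Its control mean was 3.05 FPKM here, against 14.5 FPKM in the L803mts table at wider limits (115108444 to 115118765). Of 19 genes of inhibitory synapses, Gabra3 was higher by 0.29, while the extrasynaptic δ subunit Gabrd was lower by 0.26. All of these failed the adjusted test.

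Of 25 glucocorticoid-responsive genes, Sgk1, Tiparp and Plekhf1 stood apart and were higher, and the median was 0.03. Fkbp5, a sensitive glucocorticoid target, overlapped, at 12.5, 16.04 and 13.6 FPKM in siGSK3b libraries and 12.6, 13.0 and 13.7 FPKM in control libraries. Tsc22d3 (GILZ), another such target, overlapped as well, at 31.6, 25.6 and 35.9 FPKM in siGSK3b libraries and 31.9, 30.3 and 22.9 FPKM in control libraries.

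Of 65 cytosolic ribosomal protein genes, none was higher and 7 were lower at an unadjusted p under 0.05, 8 stood apart below the controls and none above, and the median was -0.11. The mean log2(FPKM + 1) of this list was 4.92, 4.87 and 4.82 in siGSK3b libraries and 4.87, 5.04 and 5.08 in control libraries. Control 1 thus lay within the range of the siGSK3b libraries, and only controls 2 and 3 were above it. The median ranged from -0.17 without control 1 to -0.07 without siGSK3b library 3. Rpsa had 130.4, 118.4 and 108.1 FPKM in siGSK3b libraries, against 142.2, 164.3 and 153.3 FPKM in control libraries (difference -0.36, SE 0.10, adjusted p = 0.817). Rpl35 and Rpl18 were lower by 0.43 and 0.58. These genes have many near-identical pseudogenes, so their values are uncertain where the counting divided fragments among copies. Of 70 nuclear-encoded respiratory chain genes, 2 stood apart above and 6 below the controls, with a median of -0.02 and with Ndufa7, a complex I subunit, lower by 0.45. Of the 17 proton pump genes, Atp6v0c stood apart, lower by 1.36, a value that rests on controls 2 and 3, since the siGSK3b libraries had 2.07 to 2.74 FPKM and control 1 had 3.23 FPKM. Among 29 chaperone genes, Hsf1, Fkbp4, Cryab and Dnaja1 stood apart and were lower by 0.13 to 0.31, with a list median of 0.02. Of the 22 cholesterol synthesis genes, Lss alone stood apart, higher by 0.37, and the list median was 0.07. Of 24 genes of translation control by mTOR, Deptor, an mTOR inhibitor, was lower by 0.33, and the median was 0.02. Among 13 genes of adult neurogenesis, the neuronal tubulin Tubb3 was lower by 0.34 and the mitotic topoisomerase Top2a was higher by 0.32. Of the 20 clock genes, Clock stood apart by 0.09.

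**Figure D4:**
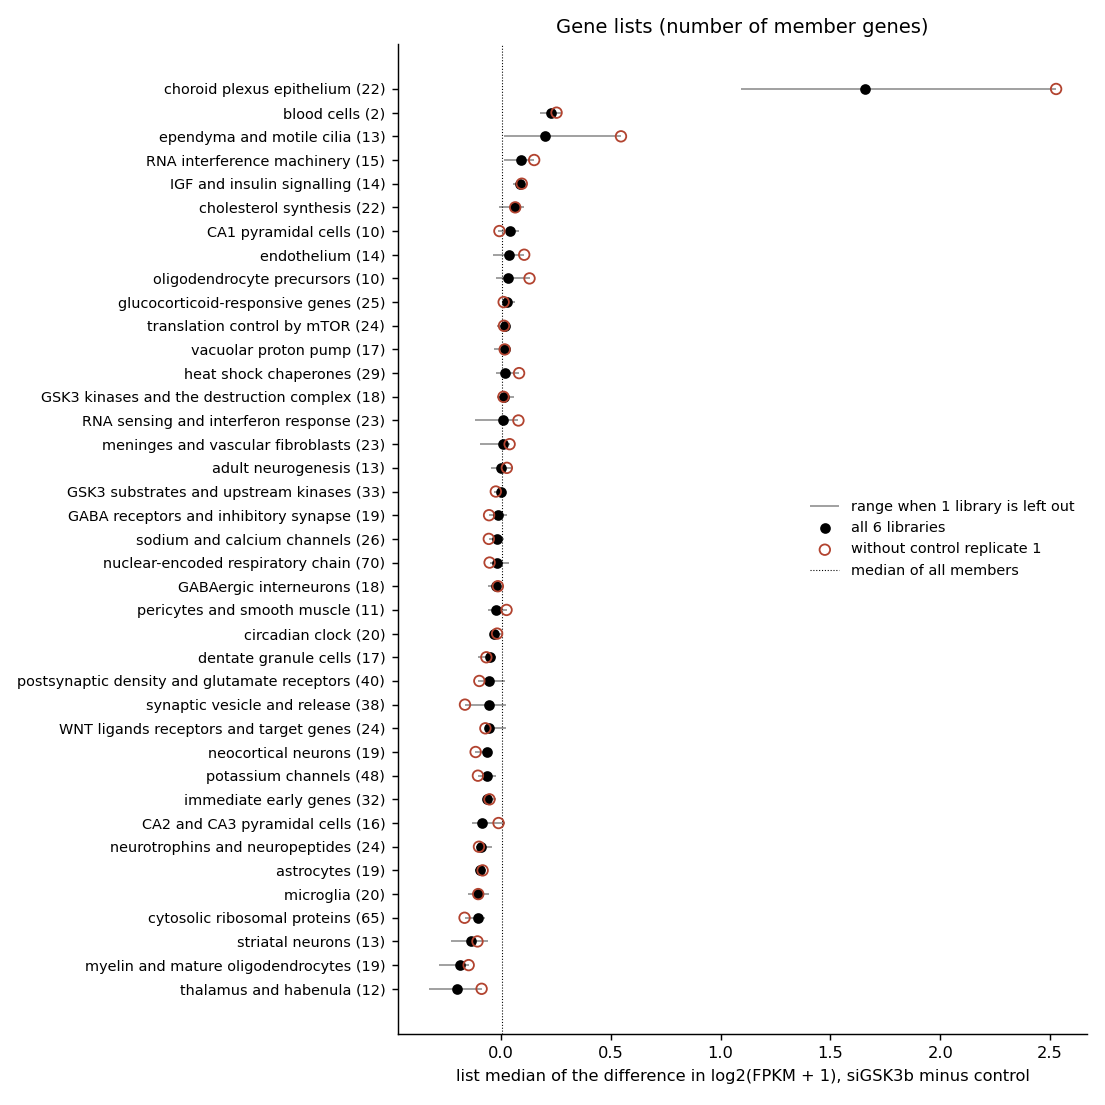
Median difference in log2(FPKM + 1), siGSK3b minus control, of each of the 39 gene lists (number of members in brackets), with all 6 libraries (filled), without control 1 (open) and over the range when each library is left out in turn (line). Choroid plexus and ependymal lists move most when control 1 is left out, to 2.53 and 0.55, and the myelin list stays between -0.28 and -0.15.

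The 3 treatments were each set against the same 3 control libraries, so their values are given side by side without a comparison between them. Sgk1 had 41.7, 33.8 and 35.7 FPKM with L803mts, a peptide inhibitor of GSK3, against 22.7, 21.5 and 18.9 FPKM in the controls of that table, a difference of 0.79. With ketamine it had 18.6, 26.1 and 31.9 FPKM, against 22.5, 21.1 and 18.6 FPKM in controls, a difference of 0.26 with groups that overlapped. Kcnj2 had 7.65, 8.35 and 7.38 FPKM with L803mts, against 13.2, 14.5 and 10.1 FPKM in controls (difference -0.62), and 11.03, 10.76 and 10.18 FPKM with ketamine, against 13.2, 14.2 and 10.3 FPKM in controls (difference -0.21). Lrrtm4 had differences of -0.50 with L803mts and -0.56 with ketamine, with groups that stood apart for L803mts and overlapped for ketamine. Ptgds was on the other side with L803mts, at 644.7, 478.2 and 434.3 FPKM, against 348.9, 480.2 and 312.1 FPKM in controls, a difference of 0.45 with overlapping groups. Gsk3b itself had 17.3, 18.2 and 22.2 FPKM with L803mts, against 18.1, 17.5 and 18.1 FPKM in controls, and 16.45, 18.41 and 18.01 FPKM with ketamine, against 18.6, 17.5 and 18.2 FPKM in controls. None of these values passed an adjusted p of 0.05 in limma within its table.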

How the data were processed

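Poly(A)-selected directional libraries of mouse hippocampus were sequenced, per the labels' protocols. TopHat2 2.0.9, Cufflinks and Cuffdiff were used, per the submitters' processing notes, which list builds GRCh37 and NCBIM37 without a role. The deposited table gives FPKM values that the authors computed per library and scaled to transcript length and library size. Its coordinates run past the last GRCm38 gene on 9 chromosomes, so they are given as NCBIM37. FPKM holds no read counts, steps of single reads could not be found, and depth is unknown, so no counting interval is given. The median over the 14978 loci was 11.2 to 11.3 FPKM in each library. Pearson's r of log2(FPKM + 1) across genes, which are not independent replicates, was 0.970 to 0.978 within siGSK3b and 0.966 to 0.973 within control. The 0.973 was that of controls 2 and 3, and control 1 had 0.966 with either of them. Control 1 had 0.968 to 0.975 with siGSK3b libraries, so it was closer to each of these than to the other controls. Controls 2 and 3 had 0.963 to 0.970 with siGSK3b libraries.

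The deposited fold change, p-value and FDR columns were not used. The test was the moderated fit of limma 3.58.1 with a mean-variance trend, run in R 4.3.3 on log2(FPKM + 1), with Benjamini-Hochberg adjustment across the 14978 loci. A difference on this scale understates the change of low loci. The fit was tested on simulated data. With 3 against 3 libraries the smallest exact two-sided permutation p is 0.1, so no single-gene permutation test was made. Groups are said to stand apart where every library of one group is above every library of the other. The loci named per direction, up to 15, have the lowest p among those whose groups stand apart by at least 0.5, and list members are those of lowest p whose groups stand apart; other list members were named after their values were seen. Some loci that met these rules are not reported here. The members and the 39 lists were chosen with earlier results of these data known. Members are loci, not replicates: 349 join several genes, 2552 share limits with another locus and 21 carry dates in place of names. Same-numbered libraries deviated from their group means with r of 0.02, -0.05 and -0.13, so numbers were not treated as pairs. Alternatives were other pseudocounts, filters, scalings and weights, a replicate block and each library left out.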

Additional observations from a re-analysis of the deposited data

How the results depend on the processing

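The number of loci lower at an adjusted p of 0.05 was 1 under pseudocount, filter, scaling, weighting and robust alternatives. It was 0 with loci that share limits left out, an alternative chosen after seeing the data. Leaving out 1 library gave 0 to 2 lower loci (0 without siGSK3b library 1 or 3, and 2 without siGSK3b library 2 or control 1). The number higher was 0, and was 1, Thoc6, with array weights (adjusted p = 0.0424), with a replicate block (adjusted p = 0.00593) and without control 2. Without siGSK3b library 2 the 1 higher locus was Wipf2, named after its values were seen. Over the libraries left out the number higher ranged from 0 to 29, the 29 without control 1. The replicate block gave 336 higher and 359 lower loci at an unadjusted p under 0.05. A mean of at least 5 FPKM gave 274 lower loci at an unadjusted p under 0.05, since fewer loci were tested. With 1 library left out, every siGSK3b library was above every control library at 1443 to 1839 loci and below at 1315 to 1663, counts that grow by construction with fewer libraries. None of the 29 loci named by p changed sign under any alternative. Among the other genes followed under every alternative, the uncalled differences of the Erf and Gsk3a locus (without siGSK3b library 3), Gad1 (without control 1) and Tekt1 (without control 2) did. The remaining list members were followed only as list medians. Depth is unknown, and no detection limit can be given.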

Other observations

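Intronic loci, which the deposited table lists apart from the spliced gene, stood apart more often above the controls than below. Of 395 such loci, 40 (10.1%) had every siGSK3b library above every control library and 7 (1.77%) had every siGSK3b library below. Over the 11665 protein-coding loci the shares were 4.86% above and 5.36% below. The mean log2(FPKM + 1) of the intronic loci was 3.13, 3.12 and 3.15 in siGSK3b libraries and 3.05, 3.20 and 2.95 in control libraries, so control 2 was above all siGSK3b libraries, and the median difference of 0.07 was 0.00 without control 3 and 0.13 without control 2. These loci are not independent, since several can lie in 1 host gene and share its limits.

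The larger of the antisense types in the table gave 20 above and 9 below of 311, which leaves out the 89 loci typed plainly as antisense, and lincRNAs 19 above and 10 below of 250. Loci with limits under 500 bases had a median size of difference of 0.217, against 0.106 for longer loci.

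The same 3 control libraries appear in the L803mts and ketamine tables, and the mean log2(FPKM + 1) of the controls for a gene of the same name differed by over 0.5 from the siGSK3b table at 21.4% of 12087 and 22.1% of 12051 genes. Where the limits of the locus were identical, the shares were 5.89% of 2599 and 5.78% of 2697.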
